A study of Arabidopsis thaliana with 24 samples.

Results

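The comparison concerns dry mature seeds of Arabidopsis thaliana with against without the T-DNA insertion heso1-4. It was formed by a rule from the genotype labels: the 3 heso1-4 and the 3 heso1-4 urt1-1 libraries made up the 6 with the insertion, the 3 wild-type (WT) and the 3 urt1-1 libraries the 6 without it, and the effect was averaged over the URT1 genotype. These are 12 of the 24 libraries of the series, whose other 12 hold the same 4 genotypes in unopened flower buds. All plants were Columbia (Col-0) and grown on soil under long days. urt1-1 and heso1-4 are insertions in the terminal uridylyltransferase genes URT1 and HESO1, each represented by 1 line, so any other change carried by a line cannot be told apart from its insertion. Each library was made from tissue of at least 5 plants. Seeds were taken 8 weeks after the onset of flowering and flower buds 2 weeks after it. Total RNA was depleted of ribosomal RNA and sequenced with strand kept, so the counts measure steady-state RNA and not the tails themselves.

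Terminal uridylyltransferases add uridines to the 3′ ends of RNAs. In Arabidopsis, URT1 acts mainly on messenger RNAs whose poly(A) tail has been shortened, and HESO1 is known for tailing microRNAs and the fragments that microRNA-guided cleavage leaves, which marks them for decay. A dry seed holds RNA stored during maturation and is largely inactive in transcription, so its RNA is set mostly by what was made and kept before drying.

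The 12 seed libraries held 19304121 to 38853305 counts on genes each. The library labelled heso1-4 replicate 3 stood apart, with a TMM normalization factor of 0.717 against 0.922 to 1.15 in the other 11. In the same set, the locus AT2G41310 took from 3.15% to 9.53% of counts and AT1G15405 from 2.43% to 9.05%, with the highest share of each in that library. Plastid genes held 5.49% to 9.38% of counts with the insertion and 6.03% to 7.76% without it. The summed level of 16 seed storage and oil body protein genes was 99539 to 147372 CPM with the insertion and 77029 to 156915 without it, so both sets held abundant seed reserve RNA and overlapped. CPM are counts scaled by TMM-adjusted library size. The 5 endosperm markers summed to 916 to 2866 CPM with the insertion and 2141 to 3376 without it, and none of the 4 that were tested passed the test. Markers of green tissue (4) summed to 34.7 to 50.6 CPM with and 25.7 to 53.6 without, and those of pollen (3) to 3.66 to 15.9 with and 4.86 to 13.3 without. These are bulk samples, in which fewer cells of a type and less RNA per cell cannot be told apart.

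Few genes passed the test between seeds with and without the heso1-4 label. Of 17939 genes tested with edgeR's quasi-likelihood test, 3 passed a Benjamini-Hochberg adjusted p of 0.05, which is 0.0167% of those tested. HESO1 itself and ARP9, the gene of an actin-related protein, were higher in the libraries labelled with the insertion, and these 2 are 0.0111% of the genes tested. AT1G64795, the gene of an uncharacterized protein, was lower, as the 1 gene (0.00557%) in that direction. DESeq2 called 3 genes higher (0.0116%) and 2 lower (0.00772%), adding AT2G16586 and AT1G67105 to the 3. With the replicate number as a block, edgeR called 4 genes (0.0223%), 2 higher and 2 lower (0.0111% each), adding AT1G67105. At an unadjusted p under 0.05 edgeR had 190 genes higher (1.06%) and 189 lower (1.05%), and shares for gene lists are read against these. Together they are 2.11% of the genes tested. If no gene differed, an exact test would give a share near its threshold of 0.05. The p-values may therefore be too large, so a gene that was not called is not shown to be unchanged. The reason for the low share was not tested.

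**Figure D1:**
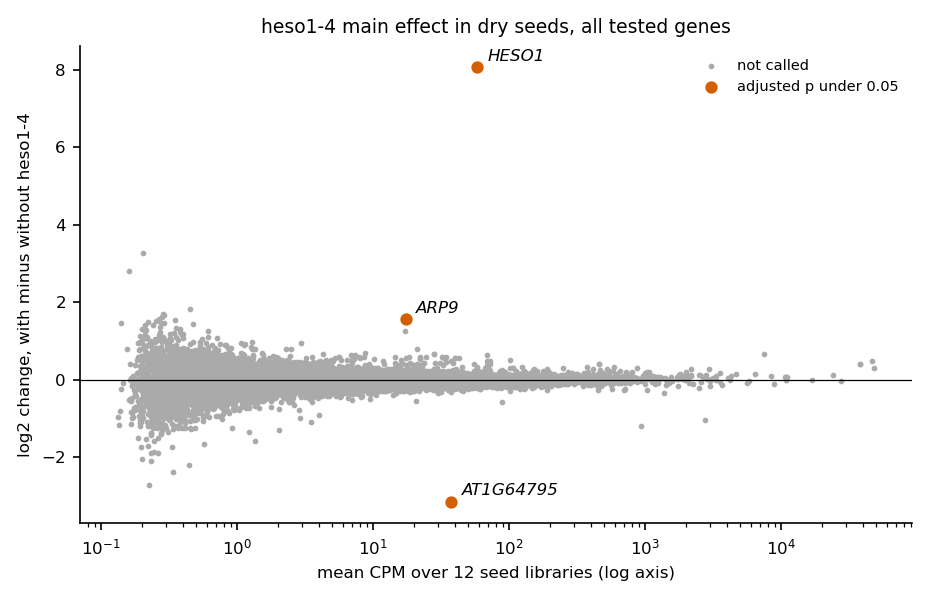
Each point is a tested gene, by its mean level over the 12 seed libraries (CPM, log axis) and the log2 change with minus without heso1-4 from the edgeR fit. Orange marks the 3 genes past an adjusted p of 0.05: HESO1 at 8.07, ARP9 at 1.55 and AT1G64795 at -3.15.

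HESO1 (AT2G39740) lies on the forward strand of chromosome 2 at 16575752 to 16579120 in TAIR10 and has up to 9 exons in the RefSeq annotation. By its name heso1-4 is an allele of this gene, yet the count of HESO1 was far higher in the libraries that carry the label. In WT seeds HESO1 was at 0.391, 0.584 and 0.381 CPM, from 8, 18 and 9 counts, and in urt1-1 seeds at 0.107, 0.409 and 0.217 CPM, from 3, 17 and 8 counts. In seeds labelled heso1-4 it was at 187, 177 and 181 CPM, and in those labelled heso1-4 urt1-1 at 51.9, 46.8 and 48.5 CPM. Every labelled library lay far above every unlabelled one, and the double mutant libraries lay below those labelled heso1-4 alone. On average its log2 change was 8.07 ± 0.15 (SE; 95% interval 7.75 to 8.38; adjusted p = 2.17e-14, edgeR).

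The rise was 8.60 ± 0.21 (SE) against WT and 7.53 ± 0.21 in the urt1-1 background. These SEs and the interval above are approximate for so large a rise from so few counts, and may be too small. The difference between these rises was -1.07 ± 0.38, with an adjusted p of 1.00. Its size is uncertain, since the unlabelled libraries hold few counts. Leaving out each library in turn gave -1.35 to -0.46, the smallest without urt1-1 replicate 2, which holds the 17 counts. The lower level in the double mutant than in seeds labelled heso1-4 alone does not rest on those few counts, and these 2 groups did not overlap. The counts cover the whole span of the gene, introns included, so they do not tell which part of HESO1 was read, and loss of HESO1 was not shown. A direction below is therefore one between libraries labelled with and without heso1-4, not one between seeds with and without the enzyme. HESO1 shares 297 bases with AT2G39750 on the opposite strand, and that neighbour, whose counts are kept apart by strand, was at -0.11 ± 0.12 (SE).

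The other terminal nucleotidyltransferase genes showed no called change. Of 10 listed members 8 were tested, and HESO1 was the 1 called. URT1 (AT2G45620, chromosome 2, 18792864 to 18795904) was at 109, 104 and 110 CPM in WT and at 106, 99.5 and 87.1 CPM in seeds labelled heso1-4. It was at 2.39, 2.76 and 2.74 CPM in urt1-1 and at 3.42, 3.80 and 3.64 CPM in heso1-4 urt1-1, so the urt1-1 label was matched by its own gene in both sets. The averaged log2 change of URT1 was 0.16 ± 0.07 (SE; adjusted p = 1.00). It averages -0.14 ± 0.09 against WT and 0.46 ± 0.12 in urt1-1, where little URT1 RNA was left, and it was -0.13 with heso1-4 as the only factor. The list median was -0.04, against -0.0023 over all genes tested.

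ARP9 (AT5G43500; chromosome 5, forward strand, 17469490 to 17473619, up to 18 exons) encodes a plant actin-related protein. It was at 6.79, 8.34 and 9.44 CPM in WT and at 7.98, 9.59 and 10.7 CPM in urt1-1. It was at 28.0, 26.5 and 24.8 CPM in seeds labelled heso1-4 and at 23.4, 26.1 and 26.4 CPM in those labelled heso1-4 urt1-1. All 6 labelled libraries lay above all 6 others with no overlap. With a 95% interval of 1.35 to 1.76, the averaged log2 change was 1.55 ± 0.10 (SE; adjusted p = 8.17e-07, edgeR).

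The rise of ARP9 was 1.69 ± 0.14 (SE) against WT and 1.42 ± 0.14 in the urt1-1 background, which in mean CPM is a ratio of 3.23 and 2.68. The difference between them was -0.27 ± 0.19 (adjusted p = 1.00). The longest run of bases that the annotated spans of HESO1 and ARP9 share on either strand is 14, and reads had 50 bases. Whether reads of HESO1 were counted for ARP9 was not tested. Of the 16 actins and actin-related proteins 14 were tested and ARP9 was the 1 called. ACT7, ACT8 and ACT2, conventional vegetative actins, were at 0.02 ± 0.07, -0.04 ± 0.09 and -0.09 ± 0.11 (log2 change ± SE). The largest change after that of ARP9 among the 14 tested was that of ACT3 at 0.445, and ACT11 was at 0.144, neither of them called. ARP4, ARP5, ARP6 and ARP7, nuclear members found in chromatin complexes, were at -0.02 ± 0.08, -0.21 ± 0.14, -0.01 ± 0.11 and -0.06 ± 0.08. ARP2 and DIS1 (ARP3), which belong to the actin-nucleating ARP2/3 complex, were at -0.10 ± 0.12 and -0.08 ± 0.11. The list median was -0.01.

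AT1G64795 (chromosome 1, forward strand, 24082579 to 24082848) lies wholly inside ILA, which runs on the opposite strand and encodes ILITYHIA, a HEAT-repeat protein; it overlaps exon 2 of the longest exon chain of that gene in RefSeq. It was at 3.47, 4.81 and 3.47 CPM in WT and at 1.98, 1.49 and 3.81 CPM in seeds labelled heso1-4. It was at 165, 109 and 147 CPM in urt1-1 and at 2.81, 2.42 and 3.43 CPM in heso1-4 urt1-1. The urt1-1 libraries stood far above the other 9, and the levels of the other groups lay close together, with those labelled heso1-4 overlapping WT.

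Averaged over the URT1 genotype the log2 change of AT1G64795 was -3.15 ± 0.20 (SE; 95% interval -3.59 to -2.71; adjusted p = 1.10e-05, edgeR). It was -0.70 ± 0.30 against WT (adjusted p = 1.00) and -5.60 ± 0.28 in the urt1-1 background (adjusted p = 1.18e-06). The interaction between the insertions was -4.90 ± 0.41 (adjusted p = 0.00067), so the average describes neither background. In a model with no interaction term the log2 change was -3.70 and not called, with an adjusted p of 1.00. ILA was at -0.09 ± 0.08 (SE).

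**Figure D2:**
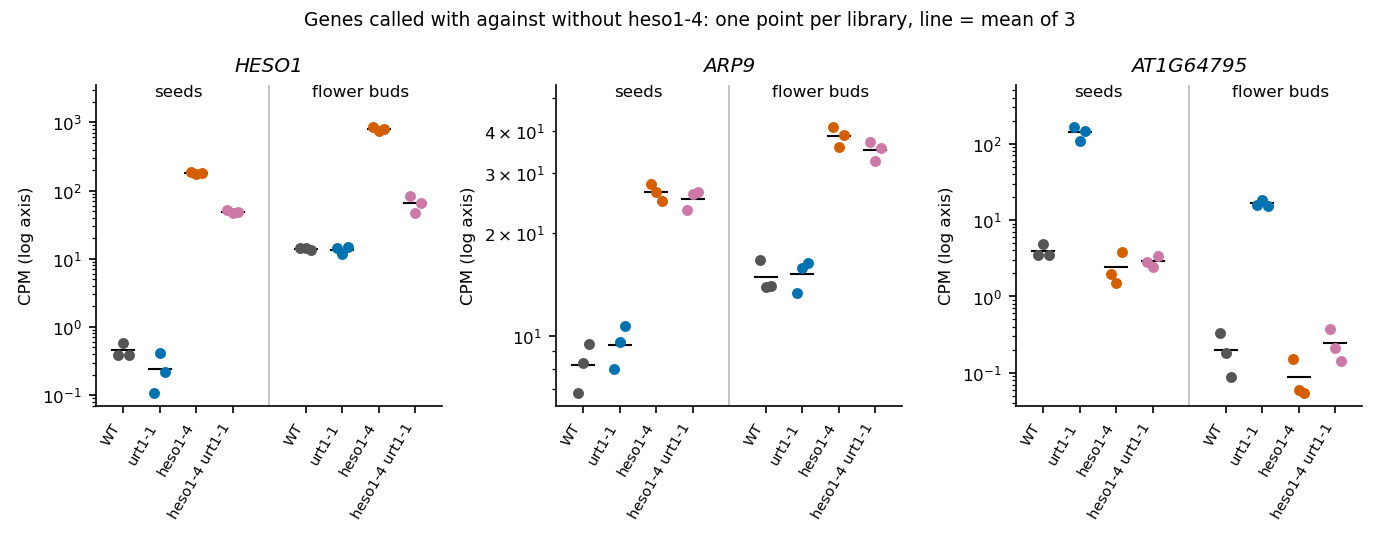
Level in CPM (log axis) of the 3 called genes, with 1 point per library in order of replicate number and a line at the mean of 3, for seeds on the left of each panel and flower buds on the right. HESO1 and ARP9 are higher in both groups labelled with heso1-4, while AT1G64795 is high in urt1-1 alone, at 109 to 165 CPM in seeds.

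None of the genes beside the 3 called ones was called. Of the 3 annotated genes on each side of each, 18 in all, 9 were tested. Their log2 changes lay between -0.34 and 0.05, the lowest being AT1G64820 at -0.34 ± 0.17 (SE). BPM3, RCA and RHC2A, near HESO1, were at 0.05 ± 0.08, -0.20 ± 0.20 and 0.04 ± 0.09. The genes nearest to ARP9 were below the filter on low counts, except RPP8, a disease resistance gene, at -0.23 ± 0.38. Over wider stretches, an unadjusted p under 0.05 was reached by 7 of 400 tested genes within 1 Mb of HESO1 (1.75%) and by 6 of 299 within 1 Mb of ARP9 (2.01%). The share over all genes tested was 2.11%, from 379 genes, and the 5 nuclear chromosomes ranged from 1.93% to 2.40%.

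Flower buds carry the same genotypes in libraries that the seed comparison did not use. There the same 3 genes were called among 22841 tested (0.0131%), 2 of them higher (0.00876%) and 1 lower (0.00438%). A fit with a replicate block called 7 genes in buds (0.0306%), 3 higher (0.0131%) and 4 lower (0.0175%). It added AT5G41740, a disease resistance gene, at 1.20 ± 0.16, and GH9B11, a glycosyl hydrolase, CYP76C3, a cytochrome P450, and AT3G22910, an ATPase, at -0.91 ± 0.13, -0.66 ± 0.09 and -0.75 ± 0.09 (log2 change ± SE). Without the block each of these 4 had an adjusted p of 1.00 and overlapping groups, but neither measure takes account of the replicate numbers. ARP9 was at 16.7, 13.9 and 14.0 CPM in WT buds, at 13.4, 15.8 and 16.3 in urt1-1, at 41.1, 35.9 and 38.9 in buds labelled heso1-4 and at 37.1, 32.7 and 35.7 in heso1-4 urt1-1. Its averaged log2 change of 1.29 ± 0.08 (SE; adjusted p = 6.26e-05) differed from that in seeds by 0.27 ± 0.13, with an adjusted p of 1.00. As in seeds, the 6 labelled libraries lay above the other 6.

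HESO1 stood at 13.4 to 14.2 CPM in WT buds and at 11.7 to 14.7 in urt1-1. It stood at 752 to 854 CPM in buds labelled heso1-4 and at 46.3 to 84.0 in heso1-4 urt1-1. The labelled buds again lay above all others, from a much higher base than in seeds. The averaged log2 change in buds was 4.06 ± 0.15 (SE; adjusted p = 2.67e-07), and the seed change exceeded it by 4.04 ± 0.23 (adjusted p = 2.52e-09). HESO1 was the 1 gene called for that difference between tissues among 23557 tested (0.00425%). By the levels above, the bud rise was far larger against WT than in the urt1-1 background. The bud average, and the tissue difference built on it, therefore describe neither background. An interaction between the insertions was not tested in buds. RNA of each tissue was extracted by its own method, which cannot be told apart from the tissue. AT1G64795 was at 15.5 to 18.6 CPM in urt1-1 buds and at most 0.374 CPM in the other 9 bud libraries. Its averaged change in buds was -3.67 ± 0.35 (adjusted p = 0.0034).

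The average over the URT1 genotype was also compared with its parts. The change of heso1-4 against WT and that of heso1-4 urt1-1 against urt1-1 rest on separate libraries. Across the 17939 genes they had a Pearson r of 0.0135 and a Spearman rho of 0.00158, given as a description since genes are not independent replicates and the changes come from a common fit. Libraries with and without heso1-4 did not overlap within either URT1 genotype for 38 genes that were higher (0.212% of those tested) and 21 that were lower (0.117%). When all 6 were set against all 6, 20 genes were higher without overlap (0.111%) and 7 lower (0.039%).

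**Figure D3:**
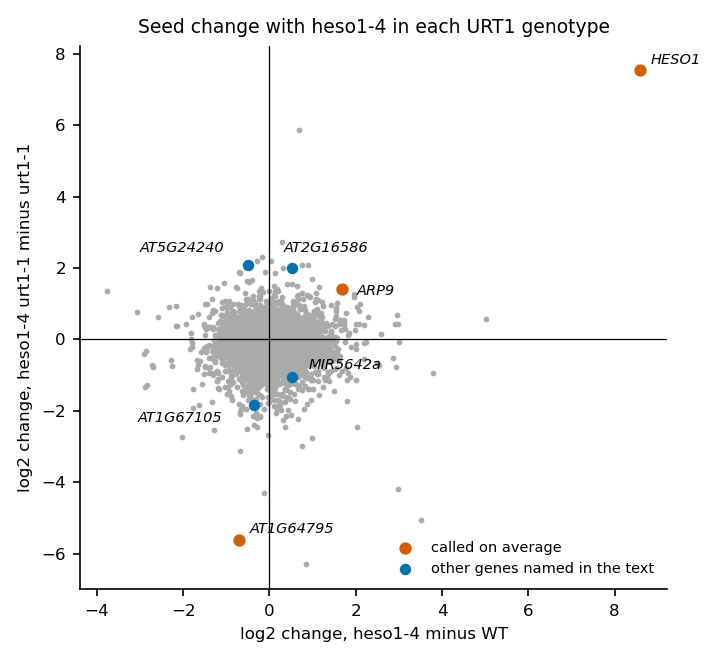
Each point is a tested gene, by its log2 change in heso1-4 against WT seeds (horizontal) and in heso1-4 urt1-1 against urt1-1 seeds (vertical). HESO1 (8.60 and 7.53) and ARP9 (1.69 and 1.42) lie in the upper right, AT1G64795 (-0.70 and -5.60) low beside the vertical line, and the mass of genes is centred on 0.

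The interaction test asked for which genes the change with heso1-4 depended on the URT1 genotype. No gene was called with a more positive change in the urt1-1 background, while 368 genes (2.05%) reached an unadjusted p under 0.05 in either direction and DESeq2 called 3 (0.0116%) in the positive direction. Of the 17939 tested, 2 genes (0.0111%) were called with a more negative change, AT1G64795 and MIR5642a. DESeq2's 3 were AT5G24240, MIR5642b and AT2G01008, which were named after their values were seen.

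MIR5642a and MIR5642b are annotated as the precursor genes of a microRNA. Their mature products are shown because both give the same sequence, so reads cannot always be assigned to 1 copy. MIR5642a also shares 92 bases with AT3G06325 on the same strand. Whether the counted reads came from microRNA precursors or from other RNA over these spans, such as RNA left after ribosomal depletion, was not tested. The capitals mark the seed, bases 2 to 8 from the 5′ end, in DNA letters from the RefSeq genome TAIR10.1.
miR5642a (chr3:14197116-14197135, forward strand): tCTCGCGCttgtacggcttt
miR5642b (chr2:3145-3164, forward strand): tCTCGCGCttgtacggcttt
The precursors of 374 and 372 bases are 98.4% identical and share an exact run of 200 bases. The values of each are uncertain for that reason.

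MIR5642a (chromosome 3, 14196774 to 14197147) was at 883, 696 and 691 CPM in WT, at 710, 608 and 579 in urt1-1, at 1111, 950 and 1213 in seeds labelled heso1-4 and at 321, 309 and 282 in heso1-4 urt1-1. It was highest in seeds labelled heso1-4 alone and lowest in the double mutant, with no overlap between those groups and their controls. Its interaction was -1.59 ± 0.20 (SE; adjusted p = 0.0075, edgeR), from 0.53 ± 0.14 against WT and -1.06 ± 0.14 in urt1-1. The call was lost without WT replicate 2 and without heso1-4 urt1-1 replicate 3, each with an adjusted p of 0.062. The averaged change was -0.26 ± 0.10 (adjusted p = 1.00).

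MIR5642b went the other way, at 89.9 to 122 CPM in WT, 179 to 233 in urt1-1, 58.7 to 78.5 in seeds labelled heso1-4 and 296 to 340 in heso1-4 urt1-1. Its interaction of 1.24 ± 0.20 (SE) had an adjusted p of 0.11 in edgeR. AT2G01008, which shares most of the span of MIR5642b on the same strand, had an interaction of 1.26 ± 0.21 (adjusted p = 0.13). Since a read over several genes was counted for each, the values of this pair are not separate evidence. Summed over both precursors, the level was 786 to 1005 CPM in WT, 758 to 943 in urt1-1, 1016 to 1291 in heso1-4 and 578 to 649 in heso1-4 urt1-1.

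AT5G24240, a phosphatidylinositol 4-kinase gamma-like gene, stood out in the double mutant. It was at 0.977, 1.20 and 1.78 CPM in WT, at 0.926, 1.42 and 2.06 in urt1-1, at 0.919, 0.991 and 0.909 in seeds labelled heso1-4 and at 4.38, 6.52 and 8.00 in heso1-4 urt1-1. The double mutant libraries lay above all others, which overlapped. The interaction was 2.58 ± 0.47 (SE; adjusted p = 0.21), and in the fit with a replicate block, where it was the 1 gene (0.00557%) called with a more positive change, its adjusted p was 0.016. In the urt1-1 background its log2 change was 2.09, against a median of 0.07 over the 7 tested genes of this kinase family. Averaged over the URT1 genotype AT5G24240 was at 0.80, and the other 6 lay between -0.19 and 0.04.

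Of the 10 genes next in order of p, the first had a pattern like that of AT1G64795 and the second like that of AT5G24240. AT1G67105, a non-coding RNA gene (chromosome 1, 25057479 to 25058264), was at 3.47, 3.25 and 3.30 CPM in WT and at 6.77, 5.34 and 6.61 in urt1-1. It was at 2.12, 2.28 and 3.46 CPM in seeds labelled heso1-4 and at 1.86, 1.06 and 2.33 in heso1-4 urt1-1. The urt1-1 libraries were the highest of the 12. Its averaged log2 change was -1.09 ± 0.19 (SE; adjusted p = 0.18). With the replicate number as a block, a fit that called 4 genes (0.0223%), it was called (adjusted p = 0.014), as it was by DESeq2 (adjusted p = 0.00065).

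AT2G16586, an uncharacterized protein gene (chromosome 2, 7190937 to 7192071), was at 3.94 to 8.69 CPM in WT, at 7.72 to 14.96 in urt1-1, at 6.33 to 10.8 in seeds labelled heso1-4 and at 41.3 to 47.5 in heso1-4 urt1-1. The double mutant lay above the other groups, which overlapped. The averaged log2 change was 1.25 ± 0.21 (SE; adjusted p = 0.20), made of 0.51 ± 0.30 against WT and 1.99 ± 0.28 in urt1-1. DESeq2 gave an adjusted p of 1.07e-06, and edgeR gave 0.023 without WT replicate 1 and 0.96 with the replicate block.

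The other 8 of these 10 genes had adjusted p-values of 1.00 and are given as values. MYB33, the third, encodes a GAMYB-like transcription factor and is a classic target of miR159, a microRNA that in Arabidopsis keeps MYB33 and MYB65 low. Their target sites are shown beside the microRNA, since HESO1 is known for acting on microRNAs and on the products of microRNA-guided cleavage. In miR159a and miR159b-3p the capitals mark the seed, and in the sites they mark the bases opposite it.
miR159a (chr1:27713234-27713254, reverse strand): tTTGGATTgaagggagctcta
miR159b-3p (chr1:6220813-6220833, forward strand): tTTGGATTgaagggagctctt
MYB33 site (chr5:1839579-1839599, forward strand): tggagctcccttcATTCCAAt
MYB65 site (chr3:3604151-3604171, forward strand): tggagctcccttcATTCCAAt
MYB101 site (chr2:13783168-13783188, reverse strand): tagagcttccttcAAACCAAa
The sites are the best match of each gene to the complement of miR159a, found by counting mismatches without gaps. All 3 lie in coding exons, with 3 mismatches of 21 bases in MYB33 and MYB65 and 2 in MYB101. A match is a description of the letters and not evidence of cleavage.

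MYB33 was at 25.6, 22.6 and 24.2 CPM in WT, at 27.0, 27.5 and 30.9 in urt1-1, at 27.6, 30.4 and 30.9 in seeds labelled heso1-4 and at 36.1, 34.0 and 35.6 in heso1-4 urt1-1. The labelled libraries lay above their controls within each URT1 genotype. Its log2 change on average was 0.30 ± 0.07 (SE; 95% interval 0.16 to 0.45; adjusted p = 1.00), with 0.30 ± 0.10 against WT and 0.31 ± 0.10 in urt1-1. In flower buds it was 0.03 ± 0.08.

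MYB65 was at 12.2, 11.5 and 13.2 CPM in WT, at 12.3, 13.4 and 13.8 in urt1-1, at 15.9, 13.1 and 16.1 in seeds labelled heso1-4 and at 15.6, 15.2 and 15.67 in heso1-4 urt1-1. Its groups overlapped in WT background and not in urt1-1. The averaged log2 change was 0.26 ± 0.08 (SE; adjusted p = 1.00), and in buds 0.06 ± 0.09. MYB101, a further target, was at 0.11 ± 0.11 in seeds and at -0.46 ± 0.12 in buds.

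The remaining 7 of these genes were lower or higher by small steps or at low level. TPPF, which encodes a trehalose-6-phosphate phosphatase, was at 6.36 to 7.08 CPM in WT and 4.98 to 5.75 in seeds labelled heso1-4, and at 5.17 to 5.88 in urt1-1 and 3.64 to 4.26 in the double mutant, a log2 change of -0.43 ± 0.11 (SE). POD1, known from pollen tube guidance, was at 2.44 to 3.27 CPM in all 6 unlabelled libraries and at 1.38 to 2.28 in the 6 labelled ones, which did not overlap, with a change of -0.58 ± 0.16. AT1G56220, a dormancy and auxin associated gene, was at 0.26 ± 0.07 and AT1G77310 at -0.48 ± 0.13. AT4G30620 was at 0.90 ± 0.26 and AT3G32920 at -1.35 ± 0.33. OFP12 had no count in any urt1-1 library and at most 0.594 CPM elsewhere, so no fold is given for it.

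**Figure D4:**
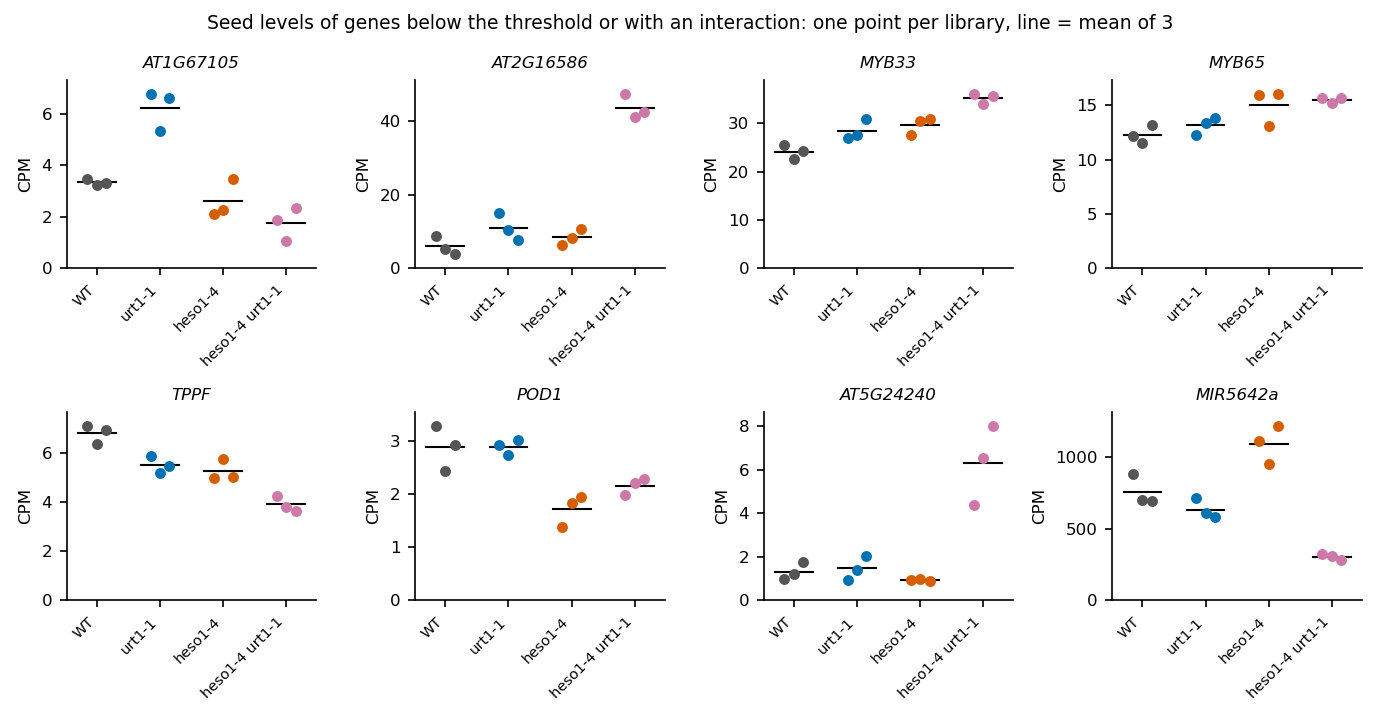
Seed level in CPM (axes from 0) of 8 genes that were not called on average, with 1 point per library in order of replicate number and a line at the mean of 3. AT1G67105 is highest in urt1-1, AT2G16586 and AT5G24240 are highest in heso1-4 urt1-1, and MYB33, MYB65, TPPF and POD1 differ by less than 1 on the log2 scale.

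Gene lists from the biology of uridylation and of the seed held no called member apart from HESO1 and ARP9. In the small RNA machinery (27 tested of 27), which makes, loads and degrades small RNAs, none was called or reached an unadjusted p under 0.05, and the median log2 change was -0.05. Among 19 genes of mRNA decay, 1 reached an unadjusted p under 0.05, against 1.05% lower among all genes tested. It was AT3G46960, which encodes a SKI2-like RNA helicase, at -0.22 ± 0.09 (SE; adjusted p = 1.00), and the list median was -0.02. Among microRNA and tasiRNA targets 58 of 79 were tested. An unadjusted p under 0.05 was reached by 3, all higher, against 1.06% higher among all genes tested. These are MYB33, MYB65 and NF-YA3 (0.17 ± 0.08). The median of that list was -0.0056, close to that of all genes.

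TAS genes give the non-coding transcripts from which trans-acting siRNAs are cut after a microRNA has cleaved them. Of 7 listed, 5 were tested and none was called, with averaged log2 changes from 0.23 to 0.72 and a median of 0.35. An unadjusted p under 0.05 (edgeR) was reached by 2, TAS3 and TAS1A, both higher, against 1.06% higher among all genes tested. TAS3 was at 1.71, 1.75 and 1.69 CPM in WT and at 2.30, 1.88 and 1.60 in seeds labelled heso1-4. It was at 1.53, 0.745 and 1.22 CPM in urt1-1 and at 2.18, 2.05 and 1.90 in the double mutant. Its groups overlapped in WT background and not in urt1-1, and its change was 0.49 ± 0.20 (SE; adjusted p = 1.00). TAS1A was at 0.35 ± 0.15, with 0.59 ± 0.22 against WT and 0.10 ± 0.22 in urt1-1. In flower buds all 7 were tested, with a median of -0.06. The mRNAs NIA1 and NIA2 of nitrate reductase, which form siRNAs when decay fails, were at 0.05 ± 0.16 and 0.18 ± 0.18.

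None of the tested members of 3 lists of seed genes was called. Among 16 seed storage and oil body protein genes and 20 late embryogenesis abundant or abscisic acid-responsive genes, the median log2 changes were 0.05 and -0.0013. Of 30 regulators of seed maturation, dormancy and germination 26 were tested, none was called, and the median was -0.02. ABI5, a bZIP factor of abscisic acid signalling, was at -0.26 ± 0.10 (SE; adjusted p = 1.00). It stood at 126 to 164 CPM in seeds labelled heso1-4 against 160 to 223 in WT, and at 163 to 219 in heso1-4 urt1-1 against 206 to 245 in urt1-1.

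Among 18 heat shock protein and factor genes 3 reached an unadjusted p under 0.05 (edgeR), all higher. The share higher over all genes tested was 1.06%, and the list median was 0.10. The small heat shock protein HSP22.0 of the endoplasmic reticulum was at 0.78 ± 0.25 (SE) and the plastid HSP21 at 0.60 ± 0.21, both with an adjusted p of 1.00. HSP22.0 ranged from 14.9 to 40.8 CPM with the insertion label and from 6.81 to 26.0 without it, so the sets overlapped. AT2G29500, a cytosolic small heat shock protein gene, was at 0.30 ± 0.11.

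Of plastid genes (100 tested of 133) 1 reached an unadjusted p under 0.05 in each direction. Over all genes tested the shares were 1.06% higher and 1.05% lower. The plastid genes had a median of 0.13. The composition of libraries moved beside them: the 2 highest plastid shares of the 12 were in libraries labelled heso1-4, and their part in this median was not tested. Cytosolic ribosomal protein genes (70 tested of 82) had a median of 0.04. Of these, 3 were at an unadjusted p under 0.05, all higher, against 1.06% higher over all genes tested. Mitochondrial genes (29 of 54) had a median of -0.05. Seed coat markers, 6 tested of 7, had the lowest median of all lists at -0.43, with summed levels of 9.34 to 13.4 CPM with the label and 11.3 to 17.56 without it. TT4, a chalcone synthase gene, was at -0.77 ± 0.41 (SE). Salicylic acid and defence genes (7 of 12) were at a median of -0.15 and short-lived stress-responsive mRNAs (12 of 14) at -0.04, with none called, and microRNA genes (34 of 325) at 0.10.

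**Figure D5:**
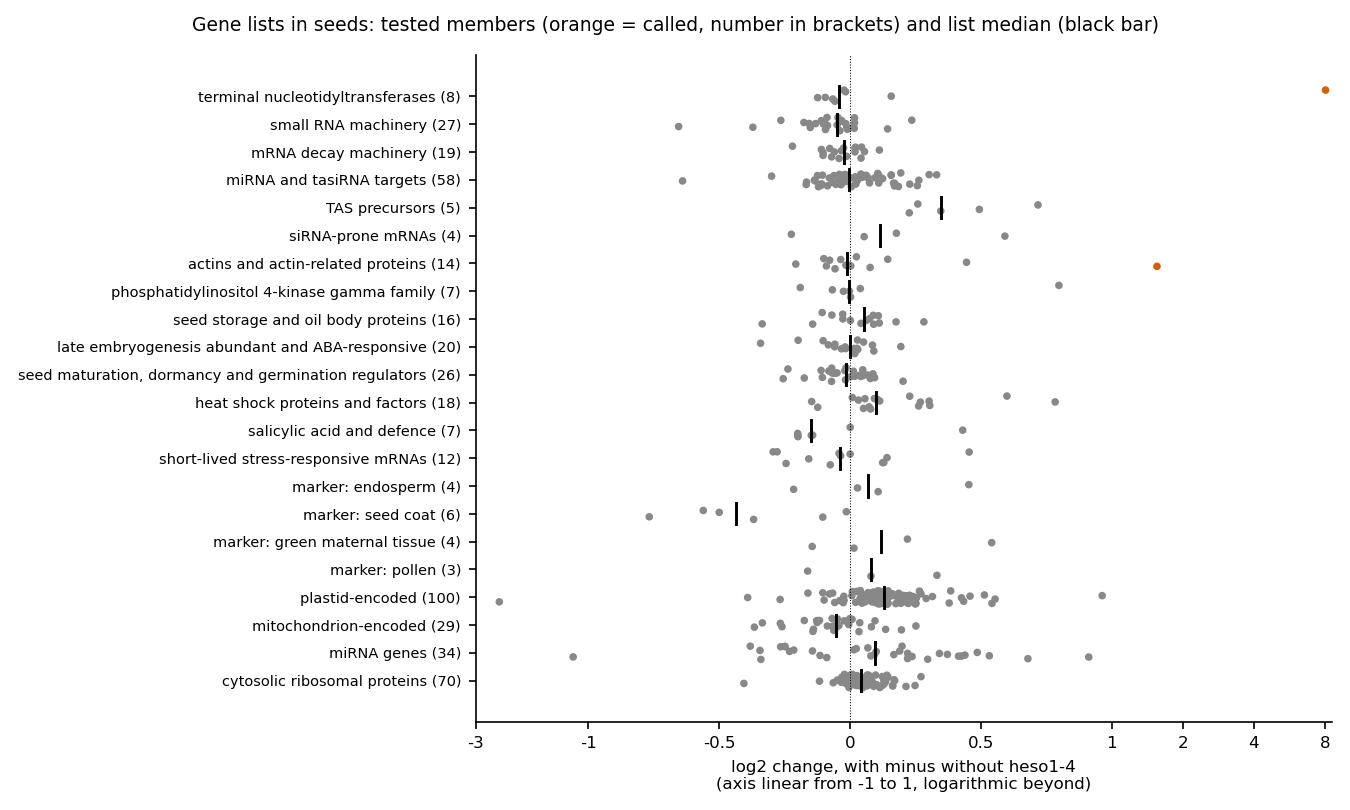
Averaged log2 change with minus without heso1-4 in seeds for the tested members of 22 gene lists, with a black bar at each list's median and the number tested in brackets; the axis is linear from -1 to 1 and logarithmic beyond. HESO1 at 8.07 and ARP9 at 1.55 are the only called members, and the list medians lie between -0.43 and 0.35.

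The precision of the comparison can be read from the intervals. The median SE of a log2 change was 0.13, and for 15249 genes (85.0%) the 95% interval lay inside a 2-fold change in either direction. Among the 14875 genes with a mean of at least 1 CPM this held for 97.4%. An estimate of 2-fold or more was seen for 142 genes, of which 10 had a mean of at least 1 CPM. For genes under that level a 2-fold difference was often not detectable at this depth.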

How the data were processed

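The authors deposited unnormalized counts of reads for each gene, with a table for each tissue. Whole gene spans were counted by featureCounts 2.0.6 with reverse strand, and a read over several genes was given to all of them, per the file headers. The sources used here do not give whether mates were counted singly or as pairs, so halved counts were tried. Per the submitters' processing notes, HISAT2 2.2.1 and TAIR10 were used. Groups and replicate numbers follow the labels.

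Tests used edgeR 4.0.16 under R 4.3.3 (filterByExpr keeping genes from a count of 10 and a total of 15, TMM, robust quasi-likelihood fit, prior count 0.125), with a mean for each of the 4 seed groups and the contrast of heso1-4 and heso1-4 urt1-1 against WT and urt1-1. Adjusted p-values are Benjamini-Hochberg over all genes tested, with a threshold of 0.05. CPM, computed here with TMM-scaled library sizes, are not per length. SEs come from the F statistic, as the absolute log2 change over its square root, and are approximate for large changes from few counts. The fit was tested on simulated data. Biological coefficients of variation were 0.180 (seeds) and 0.268 (flower buds).

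Replicate numbers, whose meaning the labels do not give, were checked as pairs. Deviations of same-numbered libraries with and without heso1-4 correlated at 0.13, 0.29 and 0.24 in seeds. In flower buds they correlated at 0.75, 0.41 and 0.68. All were over 0.1, the bound set for taking replicate numbers as pairs. SEs and p-values are still from the fit without a replicate block unless stated, and results with it are printed beside calls that it alters. The block fit called 4 genes in seeds and 7 in flower buds, against 3 in each without it. Replicates differed by more than sampling noise (chi-square per degree of freedom 17.0 to 266).

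Genes named were URT1, HESO1, every called gene, the 10 next by p, those called with the block, up to 6 called for the interaction, 3 annotated neighbours on each side of a called gene and up to 4 members per list by p. Members of small families are also named. The members and the 22 lists were chosen with earlier results of these data known. Alternatives were RLE normalization, DESeq2 1.42.0, no filter, the block, halved counts, other design matrices, removal of plastid genes and the loci AT2G41310 and AT1G15405, and leaving out each library. Sequences and gene names come from RefSeq TAIR10.1, in which 33055 of 33243 gene IDs had the positions of the deposited table.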

Additional observations from a re-analysis of the deposited data

Results flagged for a closer look

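HESO1 differed between tissues in its change with heso1-4. The averaged log2 change was larger in seeds than in flower buds by 4.04 ± 0.23 (SE, adjusted p = 2.52e-09, edgeR). In each tissue all 6 labelled libraries lay above all 6 others. By level, the bud rise differed strongly between URT1 genotypes, so the bud average and the tissue difference describe neither background. The unlabelled seed libraries hold few counts, so the SE is approximate and may be too small. RNA of each tissue was extracted by its own method, which cannot be told apart from the tissue.

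AT1G64795 differed between URT1 genotypes, with an interaction of -4.90 ± 0.41 (SE; adjusted p = 0.00067, edgeR) on the log2 scale. Its 3 urt1-1 seed libraries stood above the other 9.

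MIR5642a differed between URT1 genotypes as well, with an interaction of -1.59 ± 0.20 (SE; adjusted p = 0.0075, edgeR). It was higher in 3 of 3 libraries labelled heso1-4 than in WT and lower in 3 of 3 heso1-4 urt1-1 libraries than in urt1-1. Its near-identical copy MIR5642b makes both values uncertain.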

How the results depend on the processing

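Of the 20 alternatives to the seed main effect, 18 kept all 3 calls, among them leaving out each library in turn, the library labelled heso1-4 replicate 3 included. Genes lower numbered 1, against 2 with DESeq2, with no filter and with the replicate block, and 0 in the additive model and with heso1-4 as the only factor. There AT1G64795 was at -3.70 and -4.75 and not called. Genes higher numbered 2 to 3 when a library was left out. With heso1-4 as the only factor URT1 turned to -0.13 and MIR5642a to 0.0059, neither called. For the interaction, genes higher numbered 3 with DESeq2 and with no filter, 1 with the replicate block and 0 to 2 when a library was left out; genes lower numbered 1 to 2. In flower buds genes lower numbered 2 with DESeq2 and 4 with the replicate block, where genes higher numbered 3. For the difference between tissues genes lower numbered 0 to 1 when a library was left out. The cause was not tested where none is given. With the replicate block AT1G67105 was added in seeds at -1.13 (adjusted p = 0.014), and none of the 3 seed calls was lost. Of 499 recomputed log2 changes of 25 named genes, 490 kept their direction and side of the threshold, 5 became called, 2 lost the call and 2 turned. Genes under 1 CPM limit what can be seen.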
